A study of Mus musculus with 7 samples.

Results

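The transcripts of 10 genes of the small RNA pathway were examined in mouse prospermatogonia, the resting germ cells of the fetal testis. They were chosen by gene symbol and all 10 were found among the 20643 genes of the table. They are Drosha and Dgcr8, which form the nuclear Microprocessor, the exporter Xpo5, the cytoplasmic nuclease Dicer1, the Argonautes Ago1, Ago2, Ago3 and Ago4, and the RNA-binding proteins Lin28a and Lin28b.

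Total RNA was sequenced in 7 libraries of EGFP+ cells sorted from fetal testes at 15.5 dpc, the age in the protocol (the source name gives 15 dpc). The 3 groups were WT (n = 2), H19Ter/H19Ter (n = 2) and H19Ter+neo/H19Ter+neo (n = 3), written below as H19Ter and H19Ter+neo. Both mutants are homozygous for a rabbit β-globin transcription terminator placed beside the imprinting control region upstream of H19. H19Ter+neo also retains the Pgkneo selection cassette, which Hprt-Cre removed in H19Ter. The study's methods describe the TgOG2 Oct4-EGFP transgene, which marks germ cells and was the basis of the sort, in the mutant fetuses, and for WT it is not stated in the sources used here. Both alleles derive from 1 targeted ES cell line, and testes from several fetuses could be digested together, so a library is a pool of cells. For germ cell collection both mutant lines were crossed with the TgOG2 line, whose strain background differs from the one they were kept on. The study's methods do not give the strain of the WT fetuses. Whether strain background differed along with genotype was not tested. The study calls the libraries biological replicates, no source used here names the litters behind each, and p-values measure the spread between these libraries. The study asked whether stopping transcription at the control region alters imprint establishment. The comparisons below ask only how the 10 genes differed between genotypes.

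In animals a primary microRNA transcript is cut by Drosha and its partner Dgcr8 into a hairpin, Xpo5 carries the hairpin to the cytoplasm, Dicer1 trims it to a duplex, and an Argonaute protein holds the mature strand that finds target mRNAs. LIN28A and LIN28B bind precursors of the let-7 family, often at a GGAG motif of the terminal loop, and block their maturation, while let-7 in turn represses Lin28a and Lin28b through their 3′ UTRs. LIN28A is known from primordial germ cells and pluripotent cells. RNA was fragmented to a size far above that of a microRNA, so mature microRNAs were not measured.

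Sequences of 3 kinds are shown because they link the LIN28 genes, the Argonautes and let-7. The first are mature strands of the let-7 family from RefSeq (GRCm38.p6), with the seed, bases 2 to 8, in capitals. let-7a is the family's reference member, and the genes of let-7e and miR-98 have rows in the expression table.
let-7a-5p: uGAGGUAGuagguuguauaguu
let-7e-5p: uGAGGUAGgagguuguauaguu
miR-98-5p: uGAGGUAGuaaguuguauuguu

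The second are let-7 hairpins. Of 11 hairpins, 8 held GGAG after the 5p arm (first copy in capitals) and 3, those of let-7b, let-7c-2 and miR-98, did not. Mirlet7e lies on the plus strand at chr17:17830352-17830444 and Mir98 on the plus strand at chrX:151913214-151913321 (GRCm38.p6).
Mirlet7e: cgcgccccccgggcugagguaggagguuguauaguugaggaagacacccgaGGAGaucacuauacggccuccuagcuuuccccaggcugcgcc
Mir98: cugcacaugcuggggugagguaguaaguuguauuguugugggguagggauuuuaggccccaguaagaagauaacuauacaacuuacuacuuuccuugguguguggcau

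The third are the matches to the let-7 seed, CTACCTC, in the longest annotated 3′ UTR of each of the 10 genes (GRCm38, sense strand only, match in capitals). All of them are exonic and on the minus strand. Lin28b held 4, Ago2 held 3, Lin28a held 2 and Ago3 held 1.
Lin28a chr4:134005185-134005210: cacagcctgttgaaCTACCTCatttt
Lin28a chr4:134004547-134004572: agatcgccacaaacCTACCTCactgt
Lin28b chr10:45381018-45381043: cccgggcgggaagtCTACCTCatgca
Lin28b chr10:45378644-45378669: atacttgttagtaaCTACCTCtgagt
Lin28b chr10:45378472-45378497: tttacagcacatggCTACCTCccagc
Lin28b chr10:45377056-45377081: aatgatggcaccgaCTACCTCttcaa
Ago2 chr15:73101720-73101745: cagatgcataaaagCTACCTCtgact
Ago2 chr15:73100036-73100061: aggtggcctctgtcCTACCTCcaggc
Ago2 chr15:73097978-73098003: tttacaatgtggatCTACCTCagtta
Ago3 chr4:126335036-126335061: gcacctgccctcacCTACCTCaccaa

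The other 6 genes held no match in this window, which says only that these letters are absent there. Of 15014 genes with an annotated 3′ UTR, 10.4% held at least 1 match, and of those with a 3′ UTR over 2000 bases 20.7% did. Ago2, Ago3, Lin28a and Lin28b all have 3′ UTRs over that length, from 2775 bases in Lin28a to 12742 in Ago3. So do Dicer1 (3851), Ago1 (4491) and Ago4 (3682), which held no match. The 20.7% is not matched to the much longer 3′ UTRs of Ago2 (11064) and Ago3. A match is a description of the letters and not evidence of a functional site.

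Depth ran from 37.5 to 51.2 M read pairs in the WT and H19Ter libraries and from 84.1 to 87.3 M in H19Ter+neo, so depth and the H19Ter+neo genotype cannot be told apart by group alone. After random thinning to 37.5 M, Dgcr8 was the only 1 of the 10 genes to lose a call against WT, and Lin28a in H19Ter gained one. The fewest read pairs behind any value of the 10 genes were 482, for Ago4. The summed level of 12 fetal germ cell markers was 4640 to 4855 CPM in WT, 4189 to 4305 CPM in H19Ter and 4672 to 4855 CPM in H19Ter+neo. Of the 12, 3 were higher and 4 lower than WT in H19Ter+neo, beside 27.7% and 26.7% of all genes. In H19Ter 5 were lower and none higher, beside 11.0% and 14.1%. Of the markers of other cells, 8 of 8 Sertoli, 5 of 6 Leydig, 7 of 7 interstitial, 5 of 5 endothelial, 2 of 4 macrophage and 2 of 5 erythroid genes had values, and none of these was at 0 in any library. In H19Ter+neo the Sertoli (28.2 to 36.3 CPM), Leydig (5.55 to 29.6), interstitial (40.0 to 57.2) and macrophage (4.28 to 5.09) sums overlapped with those of WT (31.1 to 32.3, 12.04 to 16.06, 40.1 to 46.3 and 4.18 to 4.98). In H19Ter the Sertoli (34.2 to 39.8), interstitial (51.3 to 81.7) and macrophage (5.52 to 6.09) sums were above WT, and the Leydig sum overlapped (11.8 to 26.7). Endothelial sums were above WT in both mutants (WT 18.8 to 19.7, H19Ter 26.39 to 26.41, H19Ter+neo 24.4 to 28.1), and erythroid sums in H19Ter+neo (WT 2.79 to 3.84, H19Ter 2.91 to 5.62, H19Ter+neo 5.83 to 6.76). The part of these differences in the results below was not tested. The row of H19 itself read 44.6 and 45.8 CPM in WT, 52.1 and 41.0 in H19Ter, and 34.2, 40.5 and 41.1 in H19Ter+neo. The cassette lies outside that gene, so this row does not check the genotype.

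In WT, levels per length spanned from Drosha to Ago4. Drosha was the highest at 92.1 ± 2.73 CPM per kb (SD, n = 2), followed by Lin28a at 76.5 ± 1.61 and Xpo5 at 39.7 ± 1.65. Averaged over the 7 libraries, Drosha exceeded 98.1%, Lin28a 97.1%, Xpo5 94.3% and Ago4 38.5% of 15148 protein-coding genes. Ago1 stood at 17.5 ± 0.47, and Lin28b (11.8 ± 0.15) and Dicer1 (11.7 ± 0.31) could not be separated because their 2 libraries overlapped. Dgcr8 (7.80 ± 0.17) and Ago3 (7.70 ± 0.11) overlapped as well. Ago2 (4.72 ± 0.58) and Ago4 (1.59 ± 0.04) were the lowest. The order of the first 6 genes was the same in all 3 genotypes. In H19Ter+neo, however, Ago1 (12.8 ± 0.56 CPM per kb) and Lin28b (12.6 ± 0.22) overlapped, and so did Ago4 (2.61 ± 0.16) and Ago2 (2.47 ± 0.31).

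**Figure D1:**
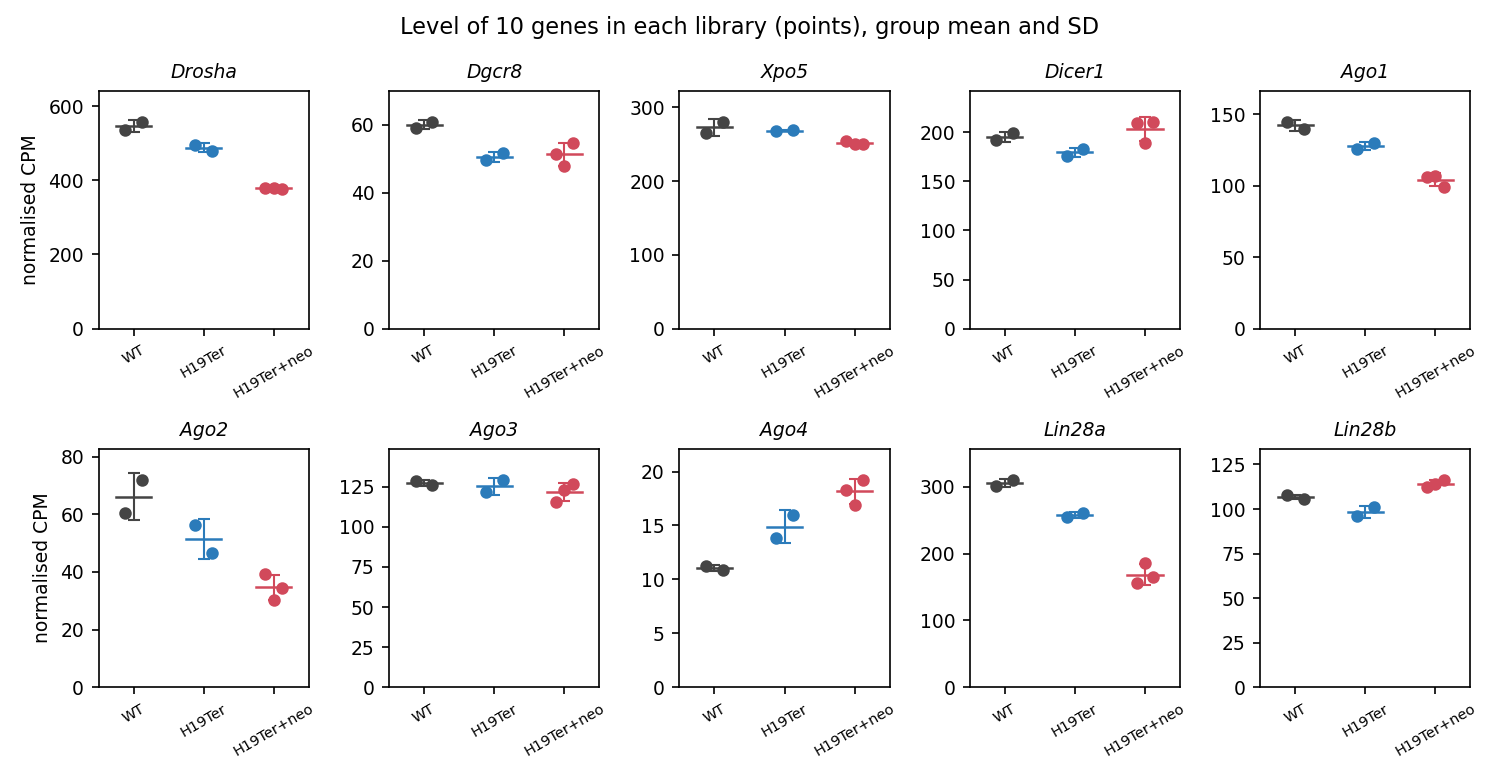
Level of each of the 10 genes in normalised CPM (vertical axis, from 0) in WT (2 libraries), H19Ter (2) and H19Ter+neo (3). Points are libraries, long horizontal lines group means and bars the SD. Lin28a falls from 306 CPM in WT to 169 CPM in H19Ter+neo, Ago4 goes from 11.0 to 18.1 CPM, and Ago3 and Xpo5 stay near their WT values.

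Against WT, H19Ter+neo cells had less Drosha, Dgcr8, Ago1, Ago2 and Lin28a RNA and more Ago4 RNA. These 6 of 10 genes (60.0%) passed an adjusted p of 0.05, 1 higher and 5 lower, where 54.4% of all genes passed, 27.7% higher and 26.7% lower. The share of called genes was thus near that of all genes. The median log2 fold change of the 10 genes was -0.17, beside 0.01 over all genes and -0.06 over those of mean log2 level at least 1. In H19Ter against WT, 2 genes passed, Ago4 higher and Dgcr8 lower, 2 of the 10 beside 25.1% of all genes (14.1% higher and 11.0% lower). The medians were -0.14 and -0.01, and -0.06 over genes of mean log2 level at least 1. Between the mutants 5 genes passed (50.0%), with Drosha, Ago1, Ago2 and Lin28a lower and Lin28b higher in H19Ter+neo, beside 27.7% of all genes (12.5% higher and 15.2% lower). Of genes of mean log2 level at least 1, fitted alone, 57.9% passed in H19Ter+neo and 27.4% in H19Ter against WT. Between the mutants 35.4% of them did. The 3 comparisons share libraries, so they are not independent. Fewer cells of a type and less RNA per cell cannot be told apart in such pooled RNA.

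**Figure D2:**
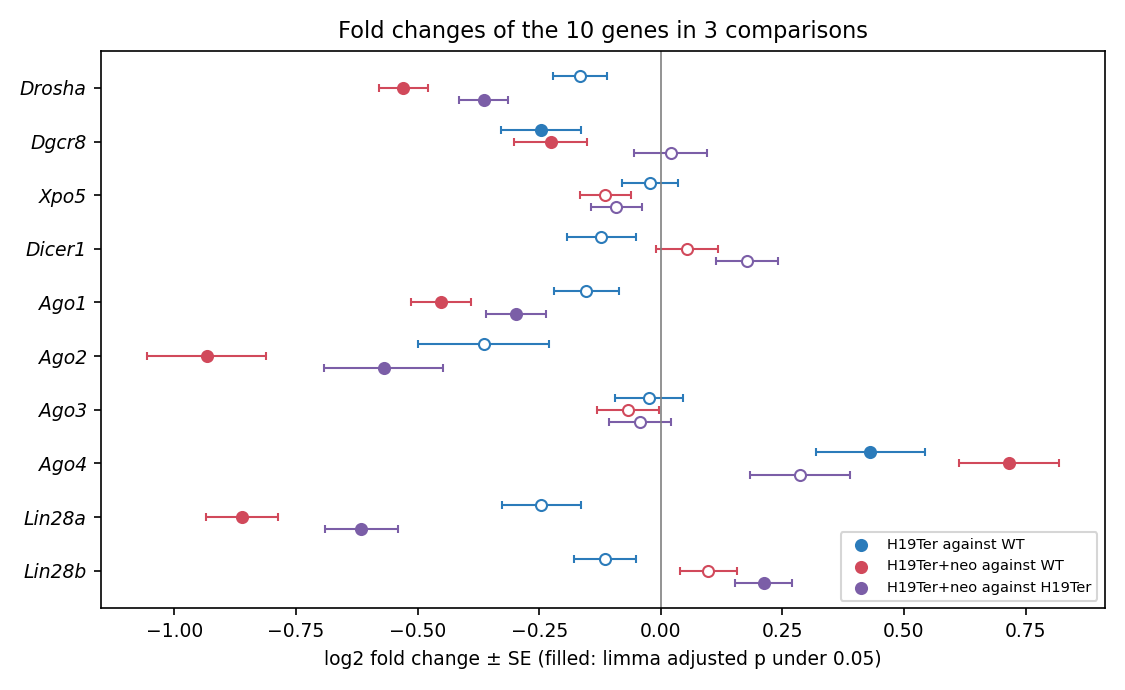
log2 fold change (horizontal axis) of each of the 10 genes, with bars of 1 SE, in H19Ter against WT, H19Ter+neo against WT and H19Ter+neo against H19Ter. Filled points passed a limma adjusted p of 0.05. Ago2 (-0.93) and Lin28a (-0.86) lie farthest to the left and Ago4 (0.72) farthest to the right, all in H19Ter+neo against WT.

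Lin28a, the LIN28 gene of primordial germ cells, was at 301 and 310 CPM in the WT libraries, 255 and 261 CPM in H19Ter, and 155, 186 and 164 CPM in H19Ter+neo. No library of one genotype overlapped with those of another. The gene (ENSMUSG00000050966) lies on the minus strand of chr4:134003330-134018841. In H19Ter+neo it was 0.55 of the WT level (log2 fold change -0.86 ± 0.07 SE, limma adjusted p = 1.92e-05) and 0.653 of the H19Ter level (-0.62 ± 0.07, limma adjusted p = 0.000413). Both calls held in each of the 16 other settings. In H19Ter the difference from WT was -0.25 ± 0.08 and missed the threshold (limma adjusted p = 0.0506). It passed when H19Ter+neo replicate 5, 6 or 7 was left out (limma adjusted p = 0.0222, 0.0225 and 0.0429), and under 3 of the 9 settings that kept all libraries. Those replicates lie outside this comparison and enter only the shared estimate of spread. When any WT or H19Ter library was left out, it did not pass.

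Lin28b (ENSMUSG00000063804, minus strand of chr10:45376620-45486395), the paralogue that also blocks let-7 maturation, did not follow Lin28a in H19Ter+neo. Its level was 108 and 106 CPM in WT, 96.2 and 101 CPM in H19Ter and 112, 114 and 116 CPM in H19Ter+neo. Both H19Ter libraries were below both WT libraries and all 3 H19Ter+neo libraries were above them. Neither difference from WT passed (H19Ter -0.11 ± 0.06, limma adjusted p = 0.211, and H19Ter+neo 0.10 ± 0.06, limma adjusted p = 0.178). The difference between the mutants did, at 0.21 ± 0.06 (limma adjusted p = 0.0223). That call was lost without H19Ter replicate 3 (0.18, limma adjusted p = 0.176) or H19Ter replicate 4 (0.25, limma adjusted p = 0.0692), and after the trend on GC content and length was removed (0.12, limma adjusted p = 0.143), with the same total per library (0.14, limma adjusted p = 0.105) or with no mean-variance trend (0.21, limma adjusted p = 0.0888).

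The log2 ratio of Lin28b to Lin28a, both per length, was -2.67 and -2.73 in WT, -2.59 and -2.55 in H19Ter, and -1.65, -1.89 and -1.68 in H19Ter+neo. Lin28a thus exceeded Lin28b by 6.50 times in WT, 5.93 times in H19Ter and 3.34 times in H19Ter+neo. All 5 mutant libraries were above both WT libraries. The mean difference was 0.63, and an exact two-sided permutation test on it over the 21 arrangements gave p = 0.190 (adjusted p = 0.286 over 3 ratios). The smallest p the design allows is 0.0476 before adjustment. An adjusted p under 0.05 was thus possible only if all 3 ratios reached it. The test also pools the 2 mutant genotypes, so no conclusion is drawn from it for any of the 3 ratios. The sum of both genes fell from 88.2 ± 1.47 CPM per kb in WT to 75.4 ± 1.40 in H19Ter and 54.8 ± 4.04 in H19Ter+neo, a description with no test.

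Drosha, the RNase III enzyme of the Microprocessor, read 535 and 558 CPM in WT, 496 and 479 CPM in H19Ter, and 380, 379 and 377 CPM in H19Ter+neo. The genotypes did not overlap. The gene (ENSMUSG00000022191) occupies chr15:12824815-12935291 on the plus strand. Its level in H19Ter+neo was 0.693 of WT (-0.53 ± 0.05, limma adjusted p = 2.97e-05) and 0.777 of H19Ter (-0.36 ± 0.05, limma adjusted p = 0.000824). The H19Ter difference from WT was -0.17 ± 0.06 and lay at the threshold (limma adjusted p = 0.0516). Without H19Ter+neo replicate 5 or 7 it passed (limma adjusted p = 0.0464 and 0.0466), as it did under 3 of the 9 settings that kept all libraries. With any other library left out, including each WT and H19Ter library, it did not pass.

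Dgcr8, which recognises the primary hairpin for Drosha, read 59.1 and 60.9 CPM in WT, 49.6 and 51.6 CPM in H19Ter and 51.4, 47.9 and 54.8 CPM in H19Ter+neo. The mutants overlapped with each other and lay below WT. The difference was -0.25 ± 0.08 in H19Ter (limma adjusted p = 0.0496) and -0.23 ± 0.07 in H19Ter+neo (limma adjusted p = 0.0254), and 0.02 ± 0.07 between the mutants (limma adjusted p = 0.867). The H19Ter call was lost without WT replicate 1 or 2 (limma adjusted p = 0.110 and 0.231) or without H19Ter replicate 3 or 4 (0.204 and 0.133), and the H19Ter+neo call without WT replicate 1 or 2 (0.0728 and 0.142) or H19Ter+neo replicate 6 (0.0761). Of the 9 settings that kept all libraries, 4 ended the first call and 2 the second. Dgcr8 (chr16:18253948-18289246, minus strand) shares 825 of 7696 exonic bases with Trmt2a on the opposite strand and 494 with genes on its own strand, so its count is uncertain to that extent. The log2 ratio of Drosha to Dgcr8 per length was 3.55 and 3.57 in WT, 3.70 and 3.59 in H19Ter and 3.26, 3.36 and 3.16 in H19Ter+neo. H19Ter was thus above WT and H19Ter+neo below it, and the exact permutation test of the 5 mutants against WT gave a difference of -0.15 with p = 0.429 (adjusted p = 0.429).

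Xpo5, the exporter of precursor hairpins (chr17:46202782-46243598, plus strand), read 265 and 280.5 CPM in WT, 267.6 and 268.6 CPM in H19Ter and 254, 251 and 250.4 CPM in H19Ter+neo. The H19Ter+neo libraries were all just below WT, by -0.11 ± 0.05 on the log2 scale (limma adjusted p = 0.0911), and H19Ter lay within the WT range (-0.02 ± 0.06, limma adjusted p = 0.80). Dicer1, which cuts the hairpin to the duplex (chr12:104687742-104751952, minus strand), read 192 and 199 CPM in WT, 176 and 183 CPM in H19Ter and 209, 189 and 211 CPM in H19Ter+neo. Neither mutant differed from WT past the threshold (-0.12 ± 0.07, limma adjusted p = 0.223, and 0.05 ± 0.06, limma adjusted p = 0.489). H19Ter+neo was above H19Ter in every library, by 0.18 ± 0.06 (limma adjusted p = 0.0634), and this passed without H19Ter+neo replicate 6 (0.23, limma adjusted p = 0.0268). After the trend on GC content and length was removed, Dicer1 passed in H19Ter against WT (-0.21, limma adjusted p = 0.0321) and between the mutants (0.23, limma adjusted p = 0.0168).

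The 4 Argonautes hold the mature strand. Ago1, Ago3 and Ago4 lie within 201.8 kb on the minus strand of chromosome 4, with 5455 bases between Ago3 and Ago1 and 20957 between Ago1 and Ago4, which hold 2 processed pseudogenes with rows in the table, while Ago2 lies on chromosome 15. Of these 3, in H19Ter+neo against WT, Ago1 fell, Ago4 rose and Ago3 did not pass the test.

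Ago2, the Argonaute that can slice its target, was at 60.5 and 71.9 CPM in WT, 56.4 and 46.5 CPM in H19Ter and 39.1, 30.4 and 34.5 CPM in H19Ter+neo. The genotypes did not overlap, although on the log2 scale Ago2 varied more within WT than any other of the 10 genes. In H19Ter+neo it was 0.523 of WT (-0.93 ± 0.12, limma adjusted p = 0.000164) and 0.674 of H19Ter (-0.57 ± 0.12, limma adjusted p = 0.00748). The second call was lost without H19Ter replicate 3 (-0.43, limma adjusted p = 0.0948) or with no mean-variance trend (limma adjusted p = 0.0532). In H19Ter the difference from WT was -0.36 ± 0.13 (limma adjusted p = 0.0712), and it passed without H19Ter+neo replicate 5 (limma adjusted p = 0.0341) and under 2 of the 9 settings that kept all libraries. With any other library left out, including each WT and H19Ter library, it did not pass. Ago2 (ENSMUSG00000036698, chr15:73095844-73184935, minus strand) has processed copies, Gm6088 (93.3% identical over 2585 bases) and Gm12904 (90.9% over 1154 bases), that have no row in the table, so reads shared with them may be missing from its count.

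Ago1 (chr4:126435012-126468583) read 145 and 139 CPM in WT, 126 and 129.7 CPM in H19Ter and 106, 107 and 98.7 CPM in H19Ter+neo. Again no genotypes overlapped. It was 0.731 of WT in H19Ter+neo (-0.45 ± 0.06, limma adjusted p = 0.000208) and 0.813 of H19Ter (-0.30 ± 0.06, limma adjusted p = 0.00624), the latter lost without H19Ter replicate 4 (-0.28, limma adjusted p = 0.0617). In H19Ter it differed from WT by -0.15 ± 0.07 (limma adjusted p = 0.121).

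Ago4 (chr4:126489541-126533472), the least abundant of the family in WT, read 11.2 and 10.8 CPM in WT, 13.8 and 16.0 CPM in H19Ter and 18.3, 16.9 and 19.2 CPM in H19Ter+neo. All mutant libraries were above WT. The rise was 1.64-fold in H19Ter+neo (0.72 ± 0.10, limma adjusted p = 0.000273) and 1.35-fold in H19Ter (0.43 ± 0.11, limma adjusted p = 0.0211). The H19Ter call was lost without WT replicate 1 or 2 (limma adjusted p = 0.0585 and 0.126) or H19Ter replicate 4 (0.153), and with no trend (0.0548) or voom weights (0.0591), and the difference between the mutants did not pass (0.29 ± 0.10, limma adjusted p = 0.0619).

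Ago3 (chr4:126331704-126429556) read 129 and 126 CPM in WT, 122 and 129 CPM in H19Ter and 115, 123 and 127 CPM in H19Ter+neo, and all 3 genotypes overlapped. The log2 differences from WT were -0.02 ± 0.07 in H19Ter (limma adjusted p = 0.820) and -0.07 ± 0.06 in H19Ter+neo (limma adjusted p = 0.392). After the trend on GC content and length was removed the latter was -0.18 (limma adjusted p = 0.0187).

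As shares of the 4 Argonautes together, per length, Ago1 took 55.5% ± 1.42 in WT, 54.0% ± 0.42 in H19Ter and 50.7% ± 1.93 in H19Ter+neo. Ago3 took 24.4% ± 0.32, 26.0% ± 0.78 and 29.1% ± 1.64, and Ago4 5.04% ± 0.12, 7.36% ± 0.67 and 10.4% ± 0.69. The share of Ago2 was 13.7% and 16.3% in the WT libraries, 13.9% and 11.3% in H19Ter, and 11.0%, 8.59% and 9.83% in H19Ter+neo. The difference of mutants minus WT was -4.06 percentage points over the 5 mutant libraries, and WT and H19Ter overlapped (exact two-sided permutation test on the mean difference, p = 0.0952, adjusted p = 0.286). The summed level of the family was 31.5 ± 0.04 CPM per kb in WT, 29.1 ± 0.38 in H19Ter and 25.2 ± 0.22 in H19Ter+neo.

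**Figure D3:**
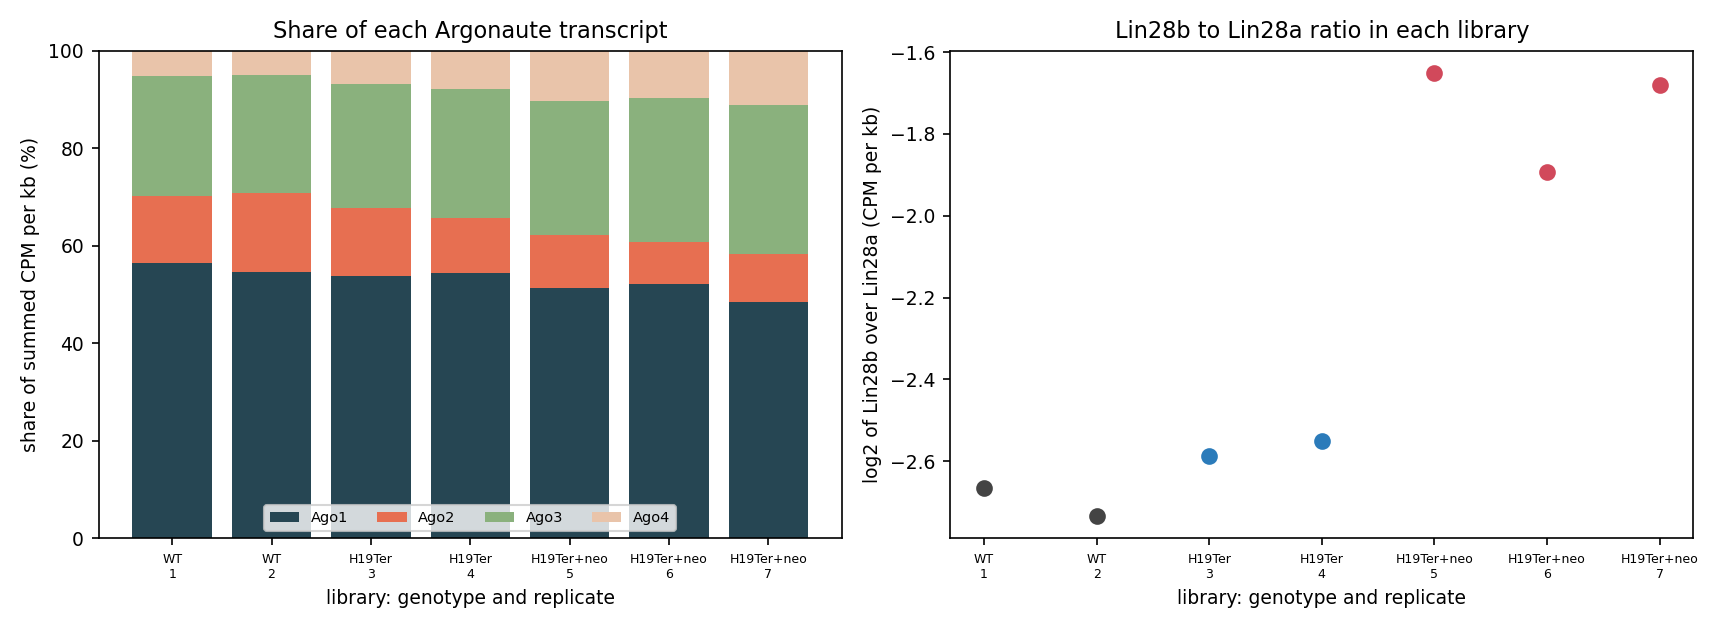
Left, share of each Argonaute in the summed CPM per kb of the 4 (vertical axis, %) in each of the 7 libraries. Right, log2 of the Lin28b to Lin28a ratio per kb in the same libraries. Ago4 goes from about 5.04% in WT to 10.4% in H19Ter+neo, and the 3 H19Ter+neo libraries, at -1.89 to -1.65, sit above the other 4.

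The genes most like the 2 members of widest range were found by the root mean square difference of centred log2 values over the 7 libraries, among 14205 genes of mean log2 level at least 1. For Ago2 they were Rnf157 (0.063), Tmbim1 (0.074) and Zfp532 (0.076). For Lin28a they were Exosc5 (0.050), Pnkd (0.051) and Pgpep1 (0.052). This is a description of 7 points that share genotype and depth.

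Of all genes of mean log2 level at least 1, 3500 were higher and 4727 lower than WT in H19Ter+neo (57.9% called, median -0.06). In H19Ter 1792 were higher and 2105 lower (27.4% called, median -0.06). Of 52 listed partner and target genes, 5 were higher and 34 lower than WT in H19Ter+neo (75.0% called, with a median log2 fold change of -0.41). Over all genes 54.4% were called, 27.7% higher and 26.7% lower. In H19Ter 3 of the 52 were higher and 18 lower (40.4%, median -0.15), beside 25.1% of all genes, 14.1% higher and 11.0% lower. With the same total per library 5 were higher and 10 lower in H19Ter, beside 23.1% of all genes called. The count of 21 fell to 7 without H19Ter replicate 3 (beside 10.9% of all genes) or 4 (beside 9.17%) and to 4 without WT replicate 2 (beside 6.82%). Between the mutants 6 were higher and 25 lower (59.6%, median -0.23), beside 27.7% of all genes and 35.4% of those of mean log2 level at least 1. Fewer pathway genes, and fewer of all genes, were called when either H19Ter library was left out. These lists were chosen with earlier results known and nothing particular to them is read from the counts.

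Among 6 Microprocessor partners, 4 were lower in H19Ter+neo (beside 26.7% of all genes), 3 in H19Ter (beside 11.0%), and none was higher than WT. Khsrp, an RNA-binding protein that promotes let-7 processing, read 89.6 and 94.8 CPM in WT, 81.5 and 74.0 CPM in H19Ter and 49.5, 53.1 and 48.1 CPM in H19Ter+neo (-0.88 ± 0.07, limma adjusted p = 1.72e-05, and -0.63 ± 0.07 against H19Ter, limma adjusted p = 0.00035). The helicase Ddx17 had the smallest p of the list in H19Ter, at 337 and 370 CPM in WT and 267 and 241 CPM in H19Ter (-0.48 ± 0.08, limma adjusted p = 0.00267). Its relative Ddx5 was higher in H19Ter+neo than in H19Ter (0.18 ± 0.05, limma adjusted p = 0.0242).

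All 4 export and Dicer partners passed in H19Ter+neo, beside 54.4% of all genes. Prkra, which encodes the Dicer partner PACT, rose from 5.14 and 5.66 CPM in WT to 7.42 and 7.35 CPM in H19Ter (0.45 ± 0.14, limma adjusted p = 0.0403) and 10.6, 9.34 and 11.9 CPM in H19Ter+neo (0.97 ± 0.13, limma adjusted p = 0.000177). Adar, an RNA editing enzyme, fell in H19Ter+neo (-0.44 ± 0.06, limma adjusted p = 0.000222), and Ran, the GTPase of Xpo5-dependent export, fell in H19Ter (-0.32 ± 0.10, limma adjusted p = 0.0452).

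Of 15 genes of Argonaute loading and silencing, 10 were lower and none higher than WT in H19Ter+neo, beside 26.7% and 27.7% of all genes. In H19Ter 7 were lower and 1 higher, beside 11.0% and 14.1%. The helicase Mov10 read 143 and 146 CPM in WT, 111 and 107 CPM in H19Ter and 73.6, 75.5 and 69.2 CPM in H19Ter+neo (-0.99 ± 0.06, limma adjusted p = 4.33e-06). The GW182 family links Argonautes to deadenylation. Its member Tnrc6b rose in H19Ter (0.26 ± 0.06, limma adjusted p = 0.0133) and fell in H19Ter+neo (-0.18 ± 0.05 against WT, limma adjusted p = 0.0164, and -0.44 ± 0.05 against H19Ter, limma adjusted p = 0.000459). Tnrc6c was lower in H19Ter+neo than in WT (-0.62 ± 0.06, limma adjusted p = 4.66e-05) and in H19Ter (-0.61 ± 0.06, limma adjusted p = 0.000224), and Tnrc6a passed in no comparison. The loading chaperone Hsp90aa1 was lower in H19Ter than WT (-0.41 ± 0.06, limma adjusted p = 0.00136) and higher in H19Ter+neo than H19Ter (0.30 ± 0.05, limma adjusted p = 0.00247).

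Of the 4 partners of LIN28 and of let-7 precursors, Trim71 and Dis3l2 fell in H19Ter+neo, as did 26.7% of all genes. None of the 4 passed in H19Ter, where 25.1% of all genes did. Trim71, a ubiquitin ligase and itself a let-7 target, read 632 and 609 CPM in WT, 580 and 541 CPM in H19Ter and 377, 412 and 398 CPM in H19Ter+neo (-0.65 ± 0.06, limma adjusted p = 2.35e-05). The uridyl transferases Tut4 (0.01 ± 0.06, limma adjusted p = 0.852) and Tut7 (-0.08 ± 0.07, limma adjusted p = 0.355) did not pass in H19Ter+neo.

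Of 7 genes of microRNA turnover, 2 were higher and 4 lower in H19Ter+neo, beside 27.7% and 26.7% of all genes. Zswim8, the receptor of the ubiquitin ligase that removes Argonaute in target-directed decay, read 91.1 and 91.6 CPM in WT, 85.6 ± 6.2 CPM in H19Ter (SD, n = 2) and 55.3, 54.2 and 49.1 CPM in H19Ter+neo (-0.79 ± 0.08, limma adjusted p = 3e-05). Tent2, a poly(A) polymerase, rose (0.37 ± 0.07, limma adjusted p = 0.00119). In H19Ter 2 were lower (beside 11.0% of all genes), and the exonuclease gene Pnpt1 had the smaller p (-0.53 ± 0.10, limma adjusted p = 0.00567).

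Of 16 genes listed as let-7 targets, 2 were higher and 11 lower than WT in H19Ter+neo (median -0.51), beside 27.7% and 26.7% of all genes. In H19Ter 1 was higher and 5 lower (median -0.02), beside 14.1% and 11.0%. Igf2bp1, an oncofetal RNA-binding protein, read 165 and 180 CPM in WT, 186 and 161 CPM in H19Ter and 93.6, 108 and 96.3 CPM in H19Ter+neo (-0.80 ± 0.09, limma adjusted p = 5.21e-05). It did not differ between H19Ter and WT past the threshold (0.01 ± 0.09, limma adjusted p = 0.966). Nr6a1, an orphan nuclear receptor, rose in both mutants (0.22 ± 0.07 in H19Ter, limma adjusted p = 0.0387, and 0.39 ± 0.06 in H19Ter+neo, limma adjusted p = 0.00045). Nras had the smallest p of the 5 lower genes in H19Ter (-0.28 ± 0.07, limma adjusted p = 0.0138).

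**Figure D4:**
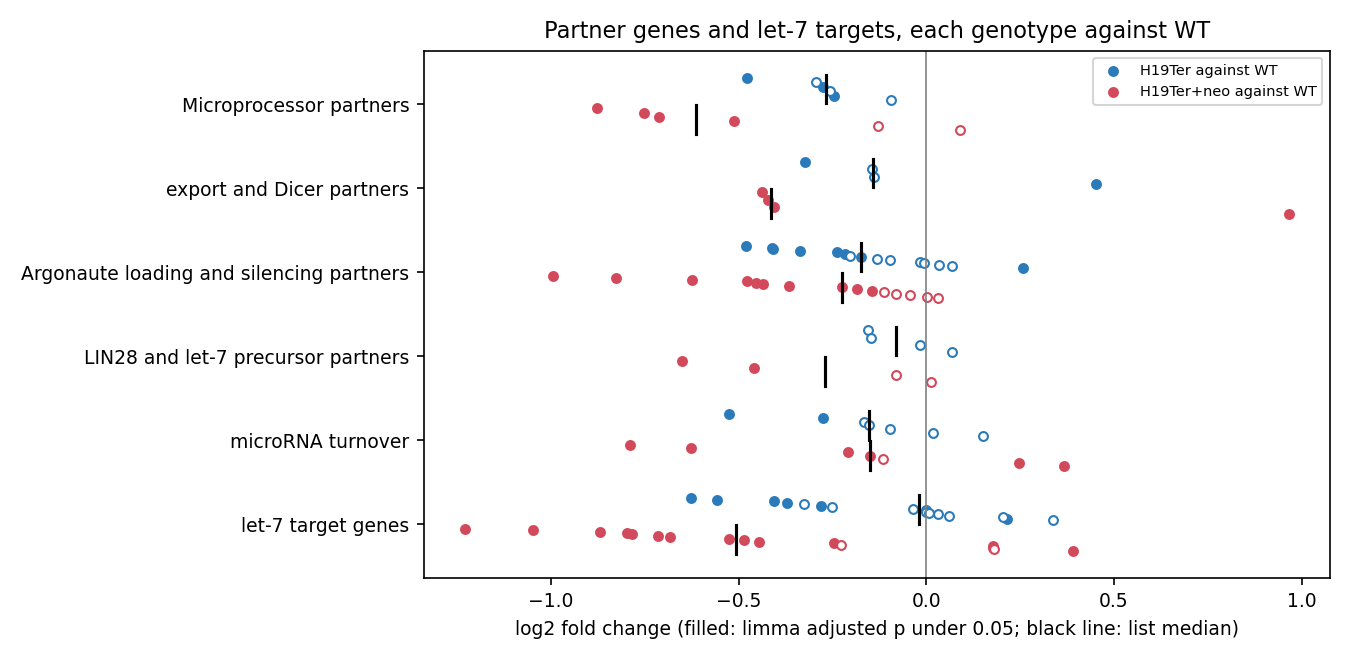
log2 fold change against WT (horizontal axis) of the 52 partner and target genes in 6 lists, for H19Ter and for H19Ter+neo. Points are genes, filled where the limma adjusted p was under 0.05, and black lines are list medians. In H19Ter+neo the medians run from -0.61 for Microprocessor partners to -0.15 for microRNA turnover.

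The table also holds longer RNAs from microRNA genes, which are transcripts or precursors and not mature microRNAs. Of the 9 rows for let-7 genes and microRNA hosts, 4 were higher, 2 lower and 3 not past the threshold in H19Ter+neo against WT. Over all genes 27.7% were higher and 26.7% lower. In H19Ter 2 rows were higher, 2 lower and 5 not past it, beside 14.1% of all genes higher and 11.0% lower. Between the mutants 2 rows were higher and none lower, beside 12.5% and 15.2%. Nothing particular to these rows is read from the counts. Mir99ahg, host of let-7c-1 and miR-99a, read 1.65 and 1.98 CPM in WT, 3.93 and 3.15 CPM in H19Ter and 5.99, 4.34 and 5.18 CPM in H19Ter+neo (1.49 ± 0.19, limma adjusted p = 0.000129, and 0.95 ± 0.20 in H19Ter, limma adjusted p = 0.00968). Mirg, which carries the imprinted microRNA cluster of the Dlk1-Dio3 domain, read 13.7 and 11.2 CPM in WT, 18.2 and 19.2 CPM in H19Ter and 21.5, 25.1 and 28.8 CPM in H19Ter+neo (1.01 ± 0.13, limma adjusted p = 0.000155, and 0.60 ± 0.14 in H19Ter, limma adjusted p = 0.0154). The libraries of both hosts were above WT in all 5 mutants. Mir17hg, host of the miR-17 to miR-92 cluster, was lower in H19Ter, at 46.6 and 43.1 CPM in WT, 33.7 and 30.7 CPM in H19Ter (-0.48 ± 0.11, limma adjusted p = 0.0141) and 50.4, 41.6 and 40.0 CPM in H19Ter+neo (limma adjusted p = 0.796), and H19Ter+neo exceeded H19Ter by 0.44 ± 0.10 (limma adjusted p = 0.0106). Mirlet7e rested on 8 to 57 read pairs a library and was higher in H19Ter+neo (1.40 ± 0.39, limma adjusted p = 0.0115), as was Mir155hg (0.64 ± 0.23, limma adjusted p = 0.036). Mir22hg was lower in H19Ter+neo (-0.55 ± 0.18, limma adjusted p = 0.0227), and Mir9-3hg was lower in both mutants (-0.91 ± 0.32, limma adjusted p = 0.0311, and -1.06 ± 0.35 in H19Ter, limma adjusted p = 0.0472).

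The rows of Mir98 and of the miR-290 cluster were looked at after their values were seen. Mir98, with 17 to 73 read pairs, did not pass (0.35 ± 0.33 in H19Ter+neo, limma adjusted p = 0.388). The miR-290 cluster, known from pluripotent cells, had 6 rows with a summed level of 3.71 and 6.90 CPM in WT, 4.02 and 2.55 CPM in H19Ter and 1.86, 1.56 and 1.60 CPM in H19Ter+neo. WT and H19Ter overlapped and H19Ter+neo lay below both. Mir291b (-1.66 ± 0.37, limma adjusted p = 0.00368), Mir293 (-1.31 ± 0.34, limma adjusted p = 0.00863), Mir295, Mir290a and Mir292 passed in H19Ter+neo, beside 54.4% of all genes. Mir291a did not pass (limma adjusted p = 0.127). These 6 rows rested on only 6 to 82 read pairs a library. The 2 WT libraries lay far apart in some, at 22 and 63 read pairs for Mir292 and 7 and 48 for Mir291a. Mature strands of 5 of the 6, from the plus strand of chr7:3218674-3220837 (RefSeq, GRCm38.p6), are shown to set their seed, in capitals, beside that of let-7. The seeds of 4 of the 5 begin with AAGUGC.
miR-290a-3p: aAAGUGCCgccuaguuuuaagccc
miR-291a-3p: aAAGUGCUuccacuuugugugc
miR-291b-3p: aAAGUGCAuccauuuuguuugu
miR-295-3p: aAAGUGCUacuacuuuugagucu
miR-293-3p: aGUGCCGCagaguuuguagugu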

How the data were processed

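The deposited table holds log2 CPM per gene, made by the authors from strand-specific, rRNA-depleted total RNA of sorted cells. The submitters' processing notes name Trim Galore 0.6.0, STAR 2.7.8, edgeR and mm10. Which gene annotation and strand column were counted is not stated in these sources. The values contain a prior count averaging 2 reads, and once it was removed 100.0% of values were whole read pairs within 1e-06, from which depth and CPM were computed. CPM per kb used exonic lengths of GENCODE vM21.

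Groups came from the genotype labels. limma 3.58.1 (R 4.3.3) with a mean-variance trend was fitted to the deposited log2 values of 20643 genes in all 7 libraries, with Benjamini-Hochberg adjustment over all genes and a threshold of 0.05. The fit was also run on simulated data with 200 changed genes. Far more genes were called here, so that run cannot vouch for these calls. ± beside a CPM or a share is the SD and beside a log2 fold change the SE. Within-library ratios were tested by exact permutation of 5 mutant against 2 WT libraries. BLAST 2.17.0 found near copies (at least 90% over 100 bases).

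Pathway genes were named by rule: in each list and comparison, the gene of smallest p in each direction among those past the threshold, while others named (Tnrc6a, Dis3l2, Tut4, Tut7) were chosen after their values were seen. Members and lists were chosen with earlier results of these data known. The other settings were fits with no trend, the same total per library, median-ratio scaling, a mean log2 of at least 1, log2(CPM + 1), only the 2 genotypes compared, voom weights, the GC content and length trend removed, counts thinned to 37.5 M read pairs, and each library left out. Proteins and genome-wide sequence were not used here.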

Additional observations from a re-analysis of the deposited data

Results flagged for a closer look

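Lin28b was the 1 gene of the 10 whose H19Ter libraries all lay on one side of WT and whose H19Ter+neo libraries all lay on the other. The difference between H19Ter+neo and H19Ter was 0.21 on the log2 scale (limma adjusted p = 0.0223), while neither genotype passed against WT. That call held in 6 of the 9 settings that kept all libraries and was lost when either H19Ter library was left out.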

How the results depend on the processing

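No paired analysis was possible because the replicate numbers 1 to 7 are each used once, so no 2 genotypes share a number. In H19Ter against WT, the 2 called members became 5 with the GC content and length trend removed, 5 with only the 2 genotypes compared, 4 with median-ratio scaling, 1 with the same total per library and 0 with no trend or with voom weights, and 0 to 5 when 1 library was left out. Over all genes the share called was 25.7% with the trend removed, 30.8% with only the 2 genotypes, 25.6% with median-ratio scaling and 23.1% with the same total. It was 13.8% with no trend and 15.0% with voom weights, where the 21 pathway genes became 4 and 13. They became 19 to 24 when 1 H19Ter+neo library was left out, beside 22.2% to 28.4% of all genes. Between the mutants, no trend gave 3 members and 18 pathway genes, beside 18.5% of all genes. Leaving out 1 H19Ter+neo library gave 5 to 6 members and 25 to 30 pathway genes, beside 23.0% to 26.2%. In H19Ter+neo against WT the counts were 5 to 6 and 33 to 37 when 1 H19Ter+neo library was left out, beside 48.0% to 53.9% of all genes. Leaving out either WT library, which leaves 1 for that genotype, gave fewer calls than the full fit. This held among all genes and among the pathway genes, so these shares depend on both WT libraries. Of 480 refitted fold changes of members, 425 kept direction and side of the threshold, 26 lost a call, 20 gained one and 9 changed sign, none of them called. With the same total per library, Xpo5 (0.056) and Ago3 (0.054) in H19Ter against WT and Dgcr8 (-0.048) between the mutants changed sign, and with the GC and length trend removed Xpo5 (0.012) between the mutants did. Leaving out 1 library gave -0.065 to 0.019 for Xpo5 and -0.069 to 0.019 for Ago3 in H19Ter against WT, and -0.027 to 0.068 for Dgcr8 and -0.086 to 0.0014 for Ago3 between the mutants. The share of called genes that were higher was 56.2% in H19Ter against WT, 72.5% with the same total and 46.0% at a mean log2 of at least 1, and between the mutants 45.3% and 32.0% with the same total. The cause of these shifts was not tested. Where 1 library stood for a genotype, it was assumed to vary like the others.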
